A study of Mus musculus with 16 samples.

Results

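Heat shock proteins and their DnaJ cochaperones were examined in RNA-seq data of sorted bone endothelial cells (ECs). Members were the genes whose symbol begins with Hspa, Hspb, Hspd, Hspe, Hsph or Hsp90 (without Hspbp1 and Hspbap1), or with Dnaja, Dnajb or Dnajc followed by a number, and whose mean reached 1 FPKM in a comparison. The FPKM unit corrects fragments for the length of a gene and the size of a library, so levels of different genes can be set side by side within a library. In the comparison of 2 bone regions 80 names matched among 38926 genes listed, and 56 of them passed the filter, among 11422 genes tested. In the Yap1/Taz comparison 71 names matched among 21603 genes listed, and 60 passed, among 11320. In the Lats2 comparison 80 names matched among 38926, and 58 passed, among 12453. Together 61 members were tested at least once and 54 in all 3 comparisons. Hspa14, with means of 15.0 FPKM in the regional and 7.83 FPKM in the Lats2 comparison, was not tested in the Yap1/Taz comparison. No identifier listed there was matched to its symbol, so its absence says nothing about its level.

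All ECs came from 3-week-old mice of the strain background C57BL/6, as the labels give it. The mpECs (3 libraries) were sorted from the metaphysis of long bone and the bmECs (3 libraries) from the marrow cavity of the diaphysis of wildtype mice with the Cdh5-mT/nG reporter, which marks endothelium by a membrane-bound Tomato and a nuclear green fluorescent protein. Yap1flx/flx; Wwtr1flx/flx mice at postnatal day 21 gave 3 libraries without Cdh5CreERT2 (control) and 3 libraries with it (labelled Yap1/Taz iΔEC), where Wwtr1 is the gene for Taz. Lats2flx/flx mice gave 2 libraries without Cdh5CreERT2 (control) and 2 with it (Lats2 iΔEC). Control mice of both deletions thus carried loxP sites in the targeted genes as well. Cdh5CreERT2 is a tamoxifen-inducible Cre recombinase under the VE-cadherin promoter, and tamoxifen was injected in the early postnatal days. The controls were littermates without Cre, so an effect of the Cre protein and an effect of the deletion cannot be told apart.

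Chaperones of the HSP70 and HSP90 families bind unfolded or partly folded proteins in cycles driven by ATP. DnaJ proteins deliver clients to HSP70 and start its ATP hydrolysis, small heat shock proteins hold unfolded proteins without ATP, and the mitochondrial chaperonin encloses them in a chamber. Cytosolic heat stress induces some of these genes through the transcription factor Hsf1, and stress in the endoplasmic reticulum (ER) induces others through the unfolded protein response. In endothelium HSP90 is known as a partner of nitric oxide synthase, and Hspb1 as a regulator of actin.

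The targeted genes were checked first. Wwtr1 stood at 10.01, 9.88 and 10.3 FPKM in the control libraries and at 15.3, 19.6 and 19.5 FPKM in the libraries labelled Yap1/Taz iΔEC, a log2 fold change of 0.78 (adjusted p = 0.0272, SE 0.12). This went against the label, and every direction given for this comparison is one between the libraries as labelled. Yap1 was at 1.07, 1.62 and 0.995 FPKM in control and at 1.43, 1.03 and 0.989 FPKM in the labelled libraries, with overlapping groups. Lats2 was at 23.4 and 24.03 FPKM in control and at 19.2 and 19.2 FPKM in Lats2 iΔEC libraries, and the difference of -0.29 (adjusted p = 0.125, SE 0.11) did not pass the test. A whole-gene FPKM value also counts exons outside the loxP sites and does not show the deleted part alone. By quantitative PCR the study reports significantly lower Yap1 and Wwtr1 transcripts in bone ECs of Yap1/Taz mutants, with weaker Yap1 staining. It also reports significantly lower Lats2 transcripts in bone ECs of Lats2 mutants. Adjusted p-values are from limma on log2(FPKM + 1) with Benjamini-Hochberg adjustment over all genes tested, a call is an adjusted p under 0.05, and each fold change is the difference of these logarithms, in which weakly expressed genes appear to change less than they do.

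From the FPKM values 11113920 to 14756144 reads on genes were recovered per mpEC or bmEC library, and 4730677 to 7162965 per library of the deletions. Endothelial markers were detected throughout: the summed level of 8 genes such as Pecam1, Cdh5 and Emcn was 418 to 1981 FPKM in the 16 libraries. The preparations also held transcripts of other cells, since 8 neutrophil markers summed to 721 to 28511 FPKM and the erythroid markers to 243 to 60408 FPKM. Neutrophil and erythroid sums were highest in the regional libraries. Endothelial markers there summed to 952 to 1224 FPKM in mpECs and 1100 to 1140 FPKM in bmECs. Neutrophil markers summed to 11956 to 28511 FPKM in mpECs and 9726 to 14143 FPKM in bmECs. For erythroid markers the sums were 28265 to 52894 FPKM in mpECs and 42495 to 60408 FPKM in bmECs. The part of these cells in the regional values of members was not tested. In bulk libraries, fewer cells of a type and less RNA per cell cannot be told apart.

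The members together held 0.613% to 0.858% of all FPKM in the 16 libraries, and 4 abundant genes made up 56.6% to 62.6% of that sum. These were Hspa8, the constitutive cytosolic HSP70, Hsp90ab1, the constitutive cytosolic HSP90, Hspa5 (BiP), the HSP70 of the ER, and Hsp90b1 (Grp94), the HSP90 of the ER. Hsp90ab1 ranked first in the regional libraries, with 773, 746 and 696 FPKM in mpECs and 655, 674 and 629.9 FPKM in bmECs. Hspa8 followed with 573, 513 and 559 FPKM in mpECs and 659, 666 and 653 FPKM in bmECs, so that the order of the 2 genes was the reverse in 2 of the 3 bmEC libraries. Below them came Hspa5, at 526, 487 and 470.1 FPKM in mpECs and 633, 578 and 554 FPKM in bmECs.

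The order differed in the other tables, which were normalized separately, so their levels are only set side by side. Hspa8 was at 774, 579 and 563 FPKM in the Yap1/Taz controls and 574, 808 and 769 FPKM in the labelled libraries, and Hspa5 was lower there, at 237, 225 and 208 FPKM in control and 229, 271 and 272 FPKM in the labelled libraries. The ranges of the 2 genes did not meet in any of these 6 libraries. Hspa5 ranked first in the Lats2 libraries, with 660.3 and 601 FPKM in control and 629.8 and 537 FPKM in Lats2 iΔEC ECs, where Hspa8 was at 167 and 163 FPKM in control and 185 and 185 FPKM in Lats2 iΔEC. In none of the 3 comparisons did any of the 4 abundant genes pass the test. For Hspa8 the regional difference of 0.27 fell just short (adjusted p = 0.0505) and was called in 4 of 14 alternatives (adjusted p 0.0344 to 0.816). Of the words of 50 bases in the Hspa8 transcript 51.4% also occur in other genes, so its reads may have been split or lost in counting.

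**Figure D1:**
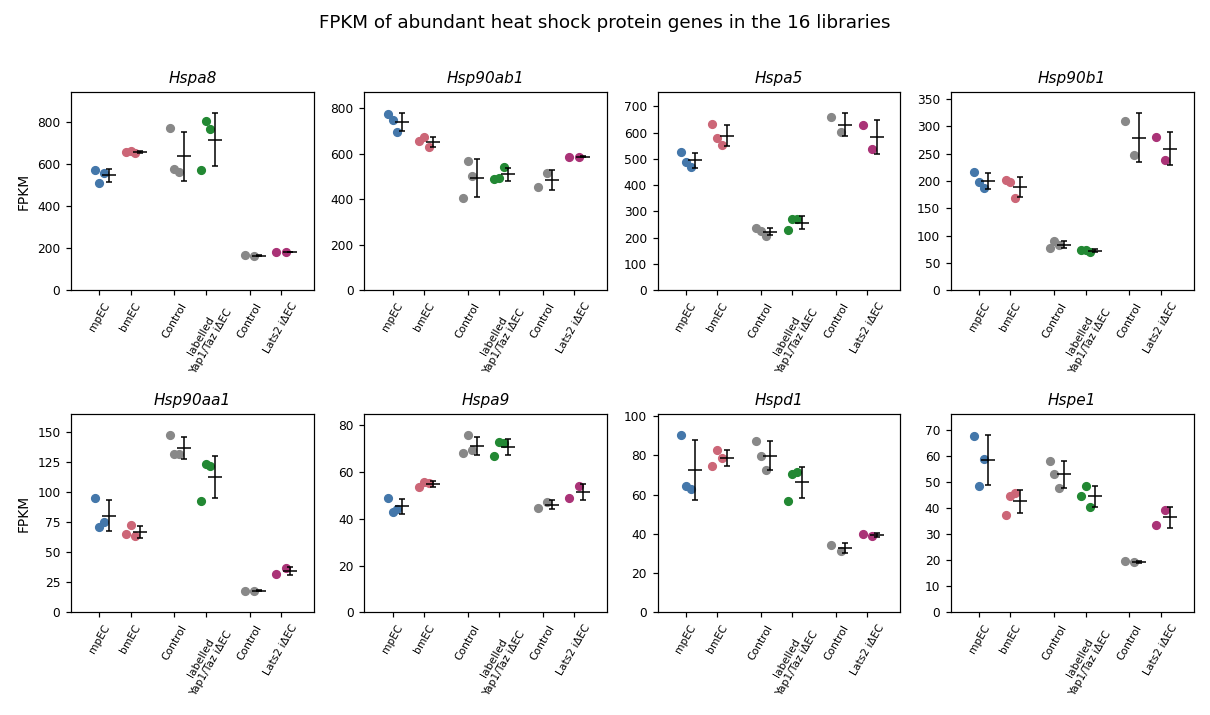
FPKM of 8 abundant members in each of the 16 libraries (points), with the mean and SD of each group beside them, and the x axis naming the groups. Hspa8 lies between 513 and 808 FPKM in the regional and Yap1/Taz libraries and between 163 and 185 FPKM in the Lats2 libraries, and the tables were normalized separately.

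Names that stayed under the filter numbered 24 in the regional table (8 pseudogenes, 10 genes at 0 in every library), 11 in the Yap1/Taz table (3 at 0) and 22 in the Lats2 table (8 pseudogenes, 13 genes at 0). Just inside the filter of the regional table lay Dnajb5 and Dnajc16, with means of 1.17 and 1.13 FPKM, and just outside it Dnaja4 and Dnajc27, with 0.849 and 0.835 FPKM. In the Yap1/Taz table Hspb6 and Dnajb3 lay just inside, with 1.18 and 1.16 FPKM, and in the Lats2 table Dnajc12 just inside (1.17 FPKM) and Hspb9 and Dnajb3 just outside (0.910 and 0.899 FPKM). The muscle-type small heat shock proteins Hspb2, Hspb3 and Hspb7 stayed at or below 0.477 FPKM in every library of all 3 tables, at most about 4 recovered reads.

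How ECs of the marrow differ from those of the metaphysis was asked first. Of the 56 members, 12 were called (21.4%), beside 23.5% of all genes tested, so the share was close to the background. They divided into 10 higher in bmECs (17.9%, background 13.0%) and 2 lower (3.57%, background 10.5%). The ER DnaJ protein Dnajb9 and the small heat shock protein Hspb1 had the largest increases and Hspb8 the largest decrease. The members' median log2 fold change was 0.09, and that of all genes -0.00068. The mpEC and bmEC libraries did not overlap for 27 members (48.2%, 20 higher and 7 lower in bmECs), beside 41.3% of all genes (22.1% higher and 19.2% lower). At an unadjusted p under 0.05 there were 20 members, beside 36.1% of all genes. The division into higher and lower depended on the scaling. When libraries were scaled to all recovered reads, an alternative added after the data were seen, the log2 fold change of the median gene moved from -0.00068 to -0.16, and 3 members were called higher and 9 lower.

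Dnajb9 (ERdj4, chr12:44205559-44210326, minus strand) binds Hspa5 in the ER lumen and is induced by the unfolded protein response. Coordinates are of GRCm38 with the GENCODE M21 annotation. Dnajb9 was at 52.98, 51.97 and 51.1 FPKM in mpECs and at 95.6, 99.5 and 77.5 FPKM in bmECs. The bmEC libraries all lay above the mpEC libraries, which were close to each other. The log2 fold change was 0.79 (adjusted p = 0.00140, SE 0.10), and it was called in all 14 alternatives. Dnajc3 (P58IPK), another ER cochaperone of Hspa5, was at 39.4, 39.9 and 38.6 FPKM in mpECs and 52.4, 54.2 and 48.8 FPKM in bmECs, again without overlap, a difference of 0.39 (adjusted p = 0.00818, SE 0.08). Hspa13, an HSP70-like protein of microsomes, rose by 0.40 (adjusted p = 0.0205, SE 0.10), from 9.49 ± 0.645 to 12.8 ± 0.898 FPKM (mean ± SD, n = 3).

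The other ER members were not called. Hspa5 itself differed by 0.25 (adjusted p = 0.0841, SE 0.09), Hsp90b1 by -0.08 (adjusted p = 0.581, SE 0.10) and Dnajb11, a luminal DnaJ partner of Hspa5, by -0.01 (adjusted p = 0.959, SE 0.07). For Hspa5 the bmEC libraries all exceeded the mpEC libraries, whereas those of Hsp90b1 and Dnajb11 overlapped. Of the 11 ER DnaJ genes tested, 2 were called higher and none lower, beside 13.0% and 10.5% of all genes. The promoters of several ER chaperones hold the ER stress response element, which in its full form is CCAAT followed after 9 bases by CCACG and is bound by factors of the unfolded protein response. In RefSeq promoter windows (GRCm38.p6, from 250 bases before to 50 bases after a transcript start) this sequence, sought on both strands, was found for Dnajc3, Hsp90b1 and Hspa5, in 3 of 66 member windows (4.55%), beside 0.119% of all 32851 windows. The second form, ATTGG followed after 1 base by CCACG, was found for Dnajb11, in 1.52% of member windows and 0.0365% of all. As the element is known from ER chaperones, which are among the members, these higher shares are not a separate result. An entry was present for 50 of the 61 members. The Dnajb9 window held neither sequence. Only these exact forms were sought, so an element that departs from them at any fixed base was missed. The lack of a match does not show that Dnajb9 lacks such an element. Printed here are the windows of Dnajc3 (chr14:118937682-118937981, plus strand) and Hspa5 (chr2:34771840-34772139, plus strand), shown because the first of these genes was called and the second was not. Capitals mark the element.
Dnajc3: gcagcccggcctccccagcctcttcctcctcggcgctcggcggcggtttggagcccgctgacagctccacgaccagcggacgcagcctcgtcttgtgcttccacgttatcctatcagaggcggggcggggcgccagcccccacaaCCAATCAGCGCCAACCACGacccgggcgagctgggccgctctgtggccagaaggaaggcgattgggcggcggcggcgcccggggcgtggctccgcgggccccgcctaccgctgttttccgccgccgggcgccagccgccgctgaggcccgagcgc
Hspa5: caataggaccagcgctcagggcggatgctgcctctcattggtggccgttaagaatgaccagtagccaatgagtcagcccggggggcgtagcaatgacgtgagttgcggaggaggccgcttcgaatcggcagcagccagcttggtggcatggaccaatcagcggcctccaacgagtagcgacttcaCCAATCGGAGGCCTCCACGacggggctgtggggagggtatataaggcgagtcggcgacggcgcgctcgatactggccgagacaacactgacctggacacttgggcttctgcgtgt

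Hspb1 (chr5:135887919-135889563, plus strand), a small heat shock protein that binds unfolded proteins and actin, was at 28.4, 35.3 and 36.2 FPKM in mpECs and at 57.5, 84.4 and 48.2 FPKM in bmECs. All bmEC libraries lay above all mpEC libraries, with replicate 2 of the bmECs well above the others. The log2 fold change was 0.88 (adjusted p = 0.0149, SE 0.20), and Hspb1 was called in all 14 alternatives. Hspb8 (chr5:116408491-116422864, minus strand), which forms a complex with Bag3 and HSP70 in the disposal of damaged proteins, went the other way, with 12.99, 16.7 and 18.96 FPKM in mpECs and 8.41, 6.18 and 7.01 FPKM in bmECs. Here each mpEC library exceeded each bmEC library, and the difference of -1.06 (adjusted p = 0.00229, SE 0.16) was called in all 14 alternatives. Hspb6 and Hspb11 were not called, at -0.18 and -0.20.

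The Hspb1 transcript is not unique, since 51.6% of its 50-base words recur in the pseudogene Hsp25-ps1. The pseudogene was listed at 0.817, 1.52 and 1.39 FPKM in mpECs and 0.614, 3.03 and 1.86 FPKM in bmECs. Cells of the vessel wall and bone also express small heat shock proteins. The 7 osteoblast markers summed to 235 to 926 FPKM in mpECs and to 44.3 to 59.6 FPKM in bmECs, and 4 of 6 tested were lower in bmECs. Smooth muscle and pericyte markers summed to 21.3 to 27.0 FPKM in mpECs and to 2.57 to 27.6 FPKM in bmECs, with 4 of 7 under 1 FPKM in every library, and 6 of 7 skeletal muscle markers were under 1 FPKM. The part of these cells in the values of Hspb1 and Hspb8 was not tested.

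Among the mitochondrial DnaJ genes, Dnajc28 was at 2.57, 2.98 and 1.76 FPKM in mpECs and 5.05, 4.27 and 3.98 FPKM in bmECs, without overlap, a log2 fold change of 0.67 (adjusted p = 0.0198, SE 0.16). The genes of smaller change that follow lie outside the rule for named genes and were named after their values were seen. The same holds for Dnajc3 and Hspa13 above. Dnajc30, a J protein of the inner membrane, rose from 18.5 ± 2.87 to 26.3 ± 1.87 FPKM (0.49, adjusted p = 0.0210). Reads of Dnajc30 are uncertain, because 26.2% of its exon bases overlap Bud23 on the other strand. Dnaja3, a J protein of the matrix, rose from 15.5 ± 0.993 to 19.5 ± 1.24 FPKM (0.32, adjusted p = 0.0384), and Hspa9 (mortalin), the HSP70 of the matrix, from 45.3 ± 3.29 to 54.9 ± 1.13 FPKM (0.27, adjusted p = 0.0438). In all, 3 of the 7 mitochondrial DnaJ genes were called, each of them higher, beside 13.0% of all genes called higher.

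Of the remaining calls, Dnajc5, the cysteine string protein of secretory vesicles, rose from 14.4 ± 0.438 to 18.6 ± 0.462 FPKM (0.35, adjusted p = 0.0159), and Hspa2, an HSP70 best known from testis, from 5.38 ± 0.181 to 7.08 ± 0.365 FPKM (0.34, adjusted p = 0.0342). Dnajc9, a histone chaperone, was lower in bmECs, with 88.8, 67.8 and 70.02 FPKM in mpECs and 57.6, 52.2 and 53.4 FPKM in bmECs (log2 fold change -0.46, adjusted p = 0.0229, SE 0.11). The mpEC libraries all exceeded the bmEC libraries, and all 10 proliferation genes listed, among them Mki67 and Top2a, were lower in bmECs too, with summed levels of 322 to 452 FPKM against 180 to 211 FPKM. Their part in the Dnajc9 value was not tested.

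The smaller calls were less stable than those of Dnajb9, Hspb1 and Hspb8. Dnajc3 was called in 13 of 14 alternatives (adjusted p 0.00621 to 0.0580), Dnajc5 in 11 of 14 alternatives (adjusted p 0.0110 to 0.195) and Dnajc9 in 11 of 14 alternatives (adjusted p 0.00293 to 0.0776). The corresponding counts were 9 of 13 alternatives (adjusted p 0.0121 to 0.0698) for Dnajc28, 9 of 14 alternatives (adjusted p 0.0111 to 0.113) for Dnajc30 and 9 of 14 alternatives (adjusted p 0.0130 to 0.140) for Hspa13. Hspa2 and Dnaja3 were each called in 6 of 14 and Hspa9 in 4 of 14. None of the 12 turned its direction in any alternative. The number called higher fell from 10 to 4 without mpEC replicate 2, bmEC replicate 1 or bmEC replicate 2 and to 6 without mpEC replicate 3, and the number called lower fell from 2 to 1 without bmEC replicate 2. At a stricter threshold, an adjusted p under 0.01 with a log2 fold change over 0.5, Dnajb9 and Hspb8 remained, beside 11.7% of all genes.

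**Figure D2:**
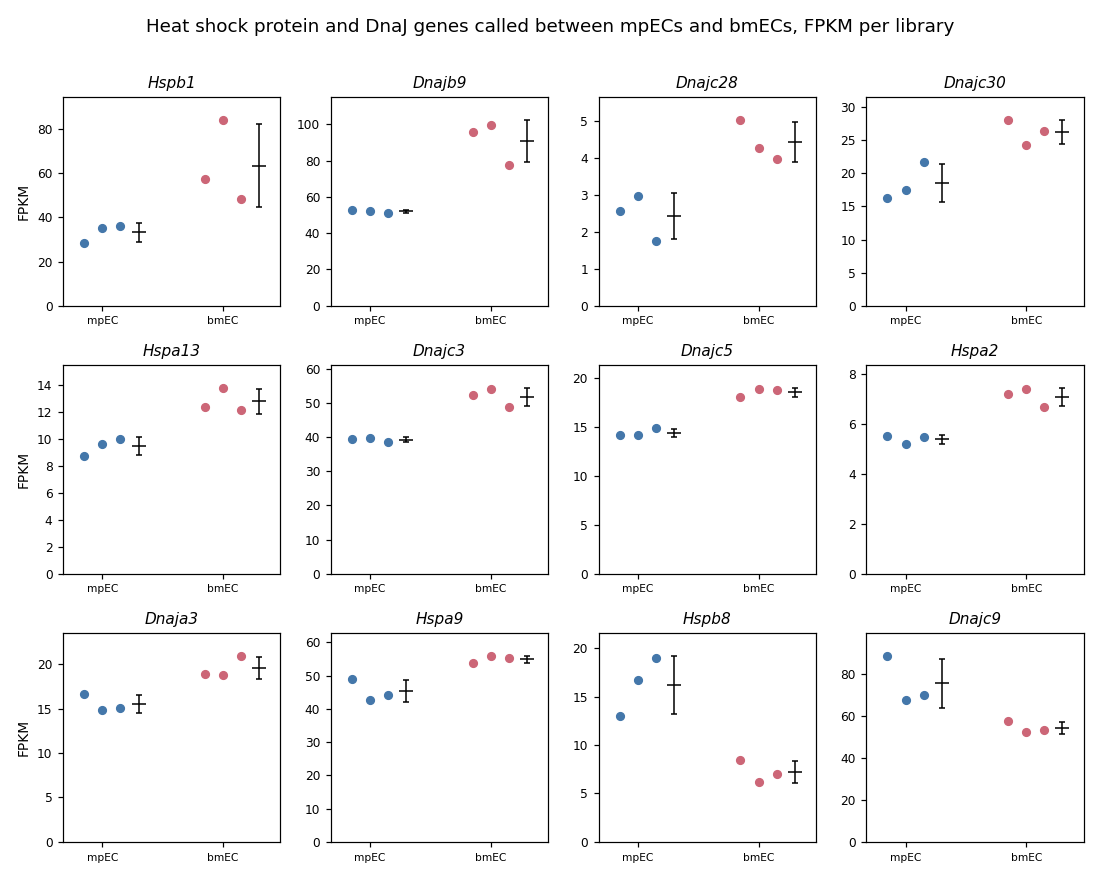
FPKM of the 12 called members in each mpEC and bmEC library (points, 3 per group), with mean and SD beside them, on axes that start at 0. In every panel the groups are apart, with 10 genes higher and Hspb8 and Dnajc9 lower in bmECs.

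The genes that heat stress induces came next. Of 11 such genes, 10 were tested and 1, Hspb1, was called higher in bmECs, beside 13.0% of all genes. None was called lower, beside 10.5% of all genes. Their median log2 fold change was -0.02, with summed levels of 1591 to 1733 FPKM in mpECs and 1640 to 1747 FPKM in bmECs. Differences of -0.25 for Hsp90aa1, the inducible HSP90, -0.18 for Hsp90ab1, -0.23 for Hsph1, an HSP70 exchange factor, 0.14 for Dnaja1 and 0.15 for Dnajb1, cytosolic partners of HSP70, did not pass the test. Hspa1a, the stress-induced HSP70, was at 4.44, 10.2 and 26.6 FPKM in mpECs and 8.43, 9.66 and 6.64 FPKM in bmECs. The mpEC libraries thus spanned a wide range on both sides of the bmEC libraries, and the difference of -0.38 (adjusted p = 0.631, SE 0.50) became 0.23 without mpEC replicate 3. Immediate early genes, which tissue dissociation can induce, summed to 1062 to 1525 FPKM in mpECs and 1213 to 3917 FPKM in bmECs. Of 15 such genes 4 were called higher, beside 13.0% of all genes. For Fos, bmEC replicate 3 was at 242 FPKM, within the mpEC range, beside 995 and 1249 FPKM in replicates 1 and 2. Jun was at 161 FPKM in bmEC replicate 3, also within the mpEC range, beside 411 and 405 FPKM. For Ier3, Junb and Socs3 every bmEC library lay above the mpEC libraries. The relation of immediate early genes to Hspa1a was not tested.

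The mitochondrial chaperonin consists of the chamber protein Hspd1 (chr1:55077835-55088243, minus strand) and its lid Hspe1 (chr1:55088132-55091307, plus strand), whose genes lie head to head and overlap at their starts. Hspe1 was at 67.5, 48.5 and 58.9 FPKM in mpECs and 37.4, 44.5 and 45.7 FPKM in bmECs, without overlap, and the difference of -0.44 (adjusted p = 0.0505, SE 0.13) missed the threshold narrowly. Hspd1 was at 90.03, 64.4 and 62.8 FPKM in mpECs and 74.6, 82.8 and 78.7 FPKM in bmECs, with overlap (log2 fold change 0.14, adjusted p = 0.523, SE 0.14). The ratio of Hspe1 to Hspd1 was 0.750 to 0.937 in mpEC libraries and 0.502 to 0.581 in bmEC libraries. Ratios within a library do not depend on its scaling, and these did not overlap. Their counting is open to error, as 44.8% of the 50-base words of Hspd1 recur in other genes. The promoter windows of the 2 genes share 285 bases, and both hold the heat shock element, the binding sequence of Hsf1, sought as GAA, TTC and GAA (or TTC, GAA and TTC) with 2 bases between neighbours, on both strands. It occurred in 6 of 66 member windows (9.09%), those of Dnajb6, Hspd1, Hspe1 and Hsph1, beside 0.603% of all windows. Only this exact form was sought, so an element that departs from it at any fixed base was missed. The windows of Hspa1a, Hspa1b, Hspb1 and Dnajb1 held no match to this form, which does not show that they lack a heat shock element. Members include genes known to be induced through Hsf1, so the higher share of member windows with a match is not a separate result. The window of Hspe1 (chr1:55087898-55088197, plus strand, GRCm38.p6) is printed because 1 stretch serves both genes, with 2 overlapping matches in capitals.
Hspe1: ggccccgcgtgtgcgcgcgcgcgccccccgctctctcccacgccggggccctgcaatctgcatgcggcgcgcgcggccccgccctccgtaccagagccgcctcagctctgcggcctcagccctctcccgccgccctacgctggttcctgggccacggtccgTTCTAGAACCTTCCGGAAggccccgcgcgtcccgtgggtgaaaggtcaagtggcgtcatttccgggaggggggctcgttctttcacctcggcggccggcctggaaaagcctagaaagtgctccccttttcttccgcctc

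Of 39 other genes of the chaperone system, such as Hsf1, the Bag proteins, Hsp90 cochaperones and Cct subunits, 37 were tested. In bmECs 3 were called higher and 3 lower, beside 13.0% and 10.5% of all genes. Fkbp5, an Hsp90 cochaperone of steroid receptors and a glucocorticoid target, was at 6.40, 7.91 and 7.31 FPKM in mpECs and 10.7, 12.8 and 13.7 FPKM in bmECs (log2 fold change 0.71, adjusted p = 0.00469, SE 0.12). Serpinh1, the collagen chaperone, was at 982, 1068 and 1081 FPKM in mpECs and 491, 554 and 604 FPKM in bmECs (log2 fold change -0.93, adjusted p = 0.000584, SE 0.10). Both were without overlap between the groups. Bag3, the partner of Hspb8, was lower in bmECs as well, with 9.84, 10.7 and 11.2 FPKM in mpECs against 7.88, 4.98 and 7.48 FPKM (log2 fold change -0.60, adjusted p = 0.0290, SE 0.16), and Sil1, an exchange factor of Hspa5, higher by 0.52 (adjusted p = 0.0118, SE 0.11). The remaining calls, named after their values were seen, were St13 (0.50) and Cct5 (-0.28). Hsf1 was not called (log2 fold change 0.17, adjusted p = 0.374, SE 0.13).

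The second comparison asked what changes in ECs when Yap1 and Taz are targeted. Of the 60 members 1 was called (1.67%), beside 1.31% of all genes. It was higher in the labelled libraries (background 0.883%), and none was lower (background 0.424%). The libraries of both groups were apart for 16 members (26.7%, 7 higher and 9 lower in the labelled libraries), beside 23.6% of all genes (12.3% higher and 11.3% lower). At the stricter threshold no member was called, beside 0.00883% of all genes. The median log2 fold change of the members was -0.02 and that of all genes -0.0047. At an unadjusted p under 0.05 there were 10 members, beside 17.9% of all genes.

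The called gene was Hspa1b, which like Hspa1a encodes the stress-induced HSP70. It was at 4.51, 3.78 and 2.54 FPKM in the control libraries and at 7.56, 6.59 and 7.03 FPKM in the libraries labelled Yap1/Taz iΔEC, which rests on 44 to 112 recovered reads. The labelled libraries all lay above the controls, by 0.83 (adjusted p = 0.0461, SE 0.17). The call was lost when any library other than control replicate 1 was left out (adjusted p 0.0747 to 0.201) and under 4 other alternatives, and it was made in 5 of 14. Hspa1a followed the same order, with 4.85, 3.05 and 2.62 FPKM in control and 6.01, 4.98 and 6.07 FPKM in the labelled libraries (log2 fold change 0.60, adjusted p = 0.128, SE 0.18), and was not called. Since Wwtr1 was higher in the same labelled libraries, these values are given for the libraries as labelled.

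Other members with a large difference did not pass the test. Hspb8 was at 3.89, 2.38 and 2.73 FPKM in control and 4.39, 6.67 and 6.23 FPKM in the labelled libraries (log2 fold change 0.76, adjusted p = 0.0719, SE 0.18). The groups were apart here too. Dnajb13 differed by 0.63 (adjusted p = 0.174, SE 0.22) with the groups apart, and Hspa2 by 0.51 (adjusted p = 0.171, SE 0.18) with overlap. Hspb8, Dnajb13 and Hspa2 were named in this comparison after their values were seen. None of the constitutive chaperones was called, where Hspa8 differed by 0.17 (adjusted p = 0.654, SE 0.17), Hsp90ab1 by 0.06 (adjusted p = 0.860, SE 0.14), Hspa5 by 0.20 (adjusted p = 0.373, SE 0.11) and Hspa9 by -0.01 (adjusted p = 0.981, SE 0.09). For Hsp90aa1 the labelled libraries were all lower, with 92.6, 123 and 122 FPKM against 147, 132 and 132 FPKM in control, and the difference of -0.29 (adjusted p = 0.260, SE 0.13) was not called. Hspb1 was at 11.03, 6.48 and 6.42 FPKM in control and 3.95, 6.47 and 7.17 FPKM in the labelled libraries with overlap, Hsp90b1 at -0.19, Hspd1 at -0.27, Hspe1 at -0.24, Hsph1 at -0.18, Dnajc9 at -0.14, Dnaja1 at 0.07 and Dnajb1 at 0.16, all without a call. None of the 37 other chaperone genes tested was called, beside 1.31% of all genes. Hsf1 was among those not called (log2 fold change 0.23, adjusted p = 0.396, SE 0.13). Immediate early genes summed to 2907 to 3083 FPKM in control and 3052 to 4009 FPKM in the labelled libraries. Socs3 was the 1 called of these 15 genes, beside 1.31% of all genes. The relation of immediate early genes to Hspa1b was not tested. In the plot of fold changes by family, members spread about 0 with a median absolute log2 fold change of 0.17 in this comparison (0.15 for all genes), 0.19 in bmECs against mpECs (0.22 for all genes) and 0.28 in Lats2 iΔEC against control (0.35 for all genes).

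**Figure D3:**
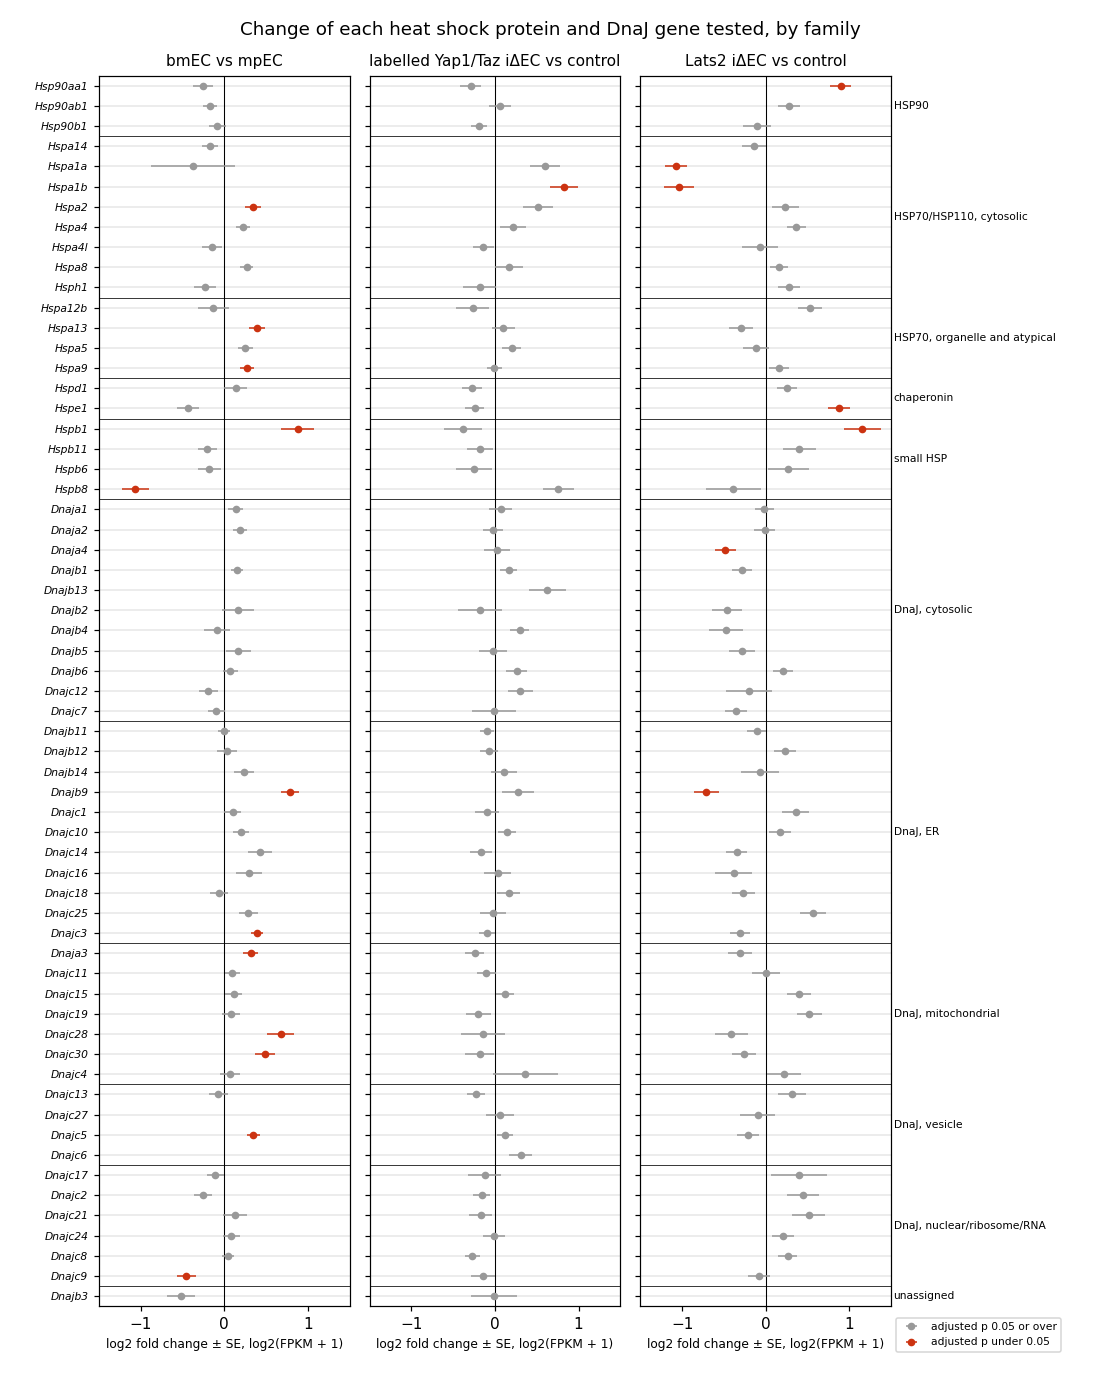
Log2 fold change with its SE for each member tested, by family, in 3 comparisons (x axis, log2(FPKM + 1) scale), with called genes in red and the 54 genes tested in all 3 having a point in each panel. Calls number 12 of 56, 1 of 60 and 7 of 58 from left to right.

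Lats2 is a Hippo kinase that restrains Yap1 and Taz, and the third comparison asked what changes in ECs when it is deleted. Of the 58 members 7 were called (12.1%), beside 21.8% of all genes. They were 3 higher in Lats2 iΔEC libraries, Hspb1, Hsp90aa1 and Hspe1 (5.17%, background 11.8%), and 4 lower, Hspa1a, Hspa1b, Dnajb9 and Dnaja4 (6.90%, background 9.98%). The libraries were apart for 43 members (74.1%, 24 higher and 19 lower), beside 68.2% of all genes (34.0% higher and 34.2% lower), so the groups of 2 libraries separated for most genes. At the stricter threshold no member was called, beside 2.06% of all genes. At an unadjusted p under 0.05 there were 16 members, beside 38.6% of all genes. The median log2 fold change was -0.02 for the members and -0.0033 for all genes. Every call rests on 2 controls: without either of them no member and no gene at all was called (adjusted p of the 7 members 0.123 to 0.270), in a fit that assumes the lone control to vary like the other libraries. Without Lats2 iΔEC replicate 2, 2 members were called higher and 1 lower, and without replicate 1, 3 higher and 2 lower.

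Hspb1 had the largest increase. It was at 63.5 and 78.4 FPKM in control and 131 and 193 FPKM in Lats2 iΔEC libraries, a log2 fold change of 1.16 (adjusted p = 0.0253, SE 0.22), called in 8 of 12 alternatives (adjusted p 0.00829 to 0.192). Both Lats2 iΔEC libraries lay above the controls, though far from each other. The pseudogene Hsp25-ps1 was listed at 3.72 and 5.94 FPKM in control and 7.58 and 14.2 FPKM in Lats2 iΔEC. Smooth muscle and pericyte markers, of cells that express Hspb1 strongly, summed to 7.87 to 13.2 FPKM in control and to 38.2 to 60.4 FPKM in Lats2 iΔEC libraries. Of 7 such markers 4 were tested and 3 called higher, among them Acta2 (0.339 and 2.17 against 9.22 and 9.93 FPKM), while 3 were under 1 FPKM in every library. Their part in the Hspb1 value was not tested. Hspb8 was at 10.9 and 6.47 FPKM in control and 4.62 and 8.24 FPKM in Lats2 iΔEC, with overlap.

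Hsp90aa1 (chr12:110690605-110702728, minus strand) was at 17.7 and 18.2 FPKM in control and 31.9 and 36.8 FPKM in Lats2 iΔEC libraries, a log2 fold change of 0.90 (adjusted p = 0.0139, SE 0.13). The increase was several times the spread within either group. Hsp90ab1, its constitutive paralogue, was at 454 and 515 FPKM in control and 588 and 587 FPKM in Lats2 iΔEC (log2 fold change 0.28, adjusted p = 0.201, SE 0.14) and was not called. The ratio of Hsp90ab1 to Hsp90aa1 was therefore 25.7 to 28.3 in control and 15.9 to 18.4 in Lats2 iΔEC libraries, without overlap. It was 8.13 to 10.5 in mpECs and 9.26 to 10.1 in bmECs, 2.75 to 4.32 in the Yap1/Taz controls and 4.03 to 5.30 in the libraries labelled Yap1/Taz iΔEC. The counting of Hsp90aa1 is uncertain, since 58.5% of its 50-base words recur in other genes, chiefly Gm12346.

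Hspe1 was at 19.6 and 19.2 FPKM in control and 33.6 and 39.4 FPKM in Lats2 iΔEC libraries (log2 fold change 0.87, adjusted p = 0.0152, SE 0.13), the groups being apart. Hspd1, whose promoter window overlaps the one printed above, was at 34.5 and 31.05 FPKM in control and 39.9 and 38.7 FPKM in Lats2 iΔEC (log2 fold change 0.26, adjusted p = 0.181, SE 0.12) and was not called. Their ratio was 0.569 to 0.617 in control and 0.842 to 1.02 in Lats2 iΔEC libraries. In the regional libraries the ratio was the higher in mpECs, the group with the higher Hspe1 level. As Hspe1 is the numerator of the ratio, this is not a separate result. Hsph1 and Dnajb6 were the other members whose window held the exact form of heat shock element sought. They differed by 0.28 (adjusted p = 0.184, SE 0.13) and 0.20 (adjusted p = 0.277, SE 0.12). Of 10 proliferation genes 3 were called higher in the same libraries, with sums of 96.8 to 98.1 FPKM in control and 133 to 178 FPKM in Lats2 iΔEC, and their part in the values of Hsp90aa1 and Hspe1 was not tested.

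Hspa1a and Hspa1b were the members with the largest decreases. Hspa1a was at 11.2 and 10.7 FPKM in control and 4.75 and 4.62 FPKM in Lats2 iΔEC libraries (log2 fold change -1.08, adjusted p = 0.0113, SE 0.13), and Hspa1b at 17.3 and 16.6 FPKM in control and 9.07 and 6.52 FPKM in Lats2 iΔEC (log2 fold change -1.04, adjusted p = 0.0195, SE 0.18). For both genes the groups were apart by more than their spread. The 2 genes cannot be told apart well by reads: 62.3% of the 50-base words of Hspa1b also occur in Hspa1a and 58.8% of those of Hspa1a in Hspa1b, while 19.0% of the exon bases of Hspa1a overlap Gm20481 on the other strand. Their promoter windows differ at 4 of 300 positions (98.7% identical). They are printed to show how alike the genes are, from chr17:34972107-34972406 for Hspa1a and chr17:34959189-34959488 for Hspa1b, both on the minus strand of GRCm38.p6, with capitals at the differing bases.
Hspa1a: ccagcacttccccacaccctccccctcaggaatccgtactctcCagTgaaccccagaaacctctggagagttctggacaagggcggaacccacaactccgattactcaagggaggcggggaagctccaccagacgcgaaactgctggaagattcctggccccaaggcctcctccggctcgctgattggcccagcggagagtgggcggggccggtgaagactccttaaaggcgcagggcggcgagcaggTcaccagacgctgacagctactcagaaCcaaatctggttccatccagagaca
Hspa1b: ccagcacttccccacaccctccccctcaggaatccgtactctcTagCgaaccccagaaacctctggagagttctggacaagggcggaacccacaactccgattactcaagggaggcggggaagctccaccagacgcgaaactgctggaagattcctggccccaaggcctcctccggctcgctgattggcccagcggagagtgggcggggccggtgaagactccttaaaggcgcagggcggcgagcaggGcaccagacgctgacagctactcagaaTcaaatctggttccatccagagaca

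Nevertheless the ratio of Hspa1a to Hspa1b varied widely between the tables. It was 0.524 to 0.709 in the Lats2 libraries and 0.755 to 1.07 in the Yap1/Taz libraries, but 4.80 to 22.7 in mpECs and 13.0 to 18.3 in bmECs. Hspa1b itself was at 0.924, 0.751 and 1.18 FPKM in mpECs and 0.650, 0.679 and 0.364 FPKM in bmECs and did not reach the filter there. The 3 tables were made separately, and how reads that fit both genes were assigned in each is not given in the sources used here, so no difference in either gene between tables is drawn from this.

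**Figure D4:**
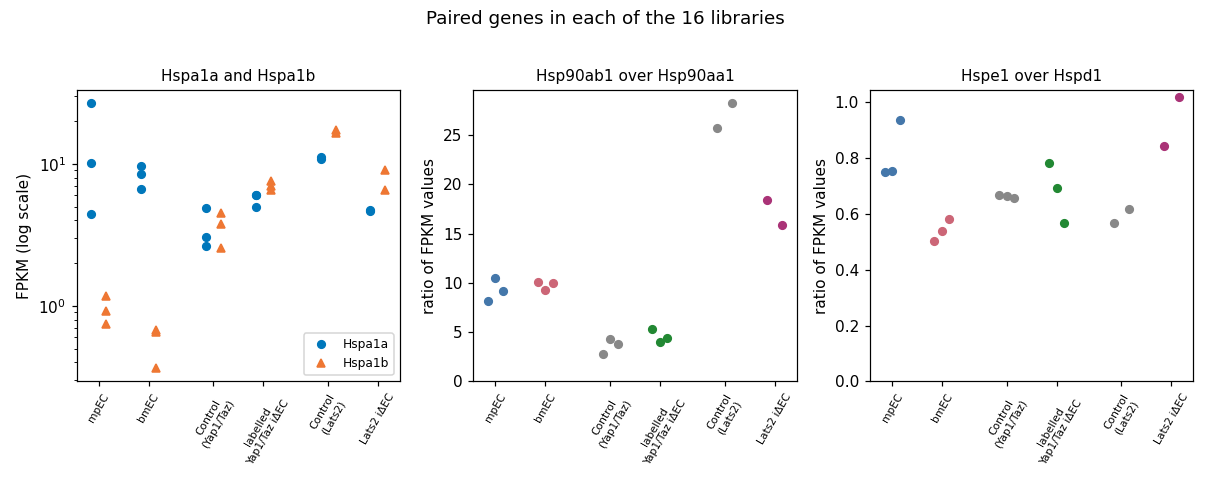
Left, FPKM of Hspa1a (circles) and Hspa1b (triangles) in each of the 16 libraries on a log axis, and middle and right, the ratio of Hsp90ab1 to Hsp90aa1 and of Hspe1 to Hspd1 in the same libraries. Hspa1a lies far above Hspa1b in the mpEC and bmEC libraries (ratios 4.80 to 22.7) and near or below it in the others, and the ratio of Hspe1 to Hspd1 is lower in bmECs than in mpECs and lower in Lats2 controls than in Lats2 iΔEC libraries.

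Dnajb9 was at 29.3 and 24.6 FPKM in control and 14.9 and 17.2 FPKM in Lats2 iΔEC libraries (log2 fold change -0.71, adjusted p = 0.0300, SE 0.15), called in 7 of 12 alternatives (adjusted p 0.0177 to 0.215). The groups were apart, and the direction was the opposite of that in bmECs against mpECs, 2 comparisons with no library in common. The other ER chaperones were not called, Hspa5 at -0.11, Hsp90b1 at -0.10, Dnajb11 at -0.11 and Dnajc3 at -0.30, the last with 45.97 and 44.6 FPKM in control and 38.8 and 34.4 FPKM in Lats2 iΔEC libraries. Dnaja4, a cytosolic J protein named after its values were seen, was at 14.95 and 15.97 FPKM in control and 10.9 and 10.7 FPKM in Lats2 iΔEC (log2 fold change -0.48, adjusted p = 0.0469, SE 0.12), called in 6 of 12 alternatives (adjusted p 0.0304 to 0.270), and Wdr61 on the other strand covers 44.1% of its exons. Hsp90aa1, Hspe1 and Hspa1a were each called in 10 of 12 alternatives and Hspa1b in 9 of 12. Neutrophil markers (5 of 8), B cell markers (6 of 6 tested) and erythroid markers (2 of 8) were called lower in the same libraries, with B cell sums of 91.7 to 111 FPKM in control and 18.7 to 29.9 FPKM in Lats2 iΔEC. Their part in the Dnajb9 value was not tested.

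**Figure D5:**
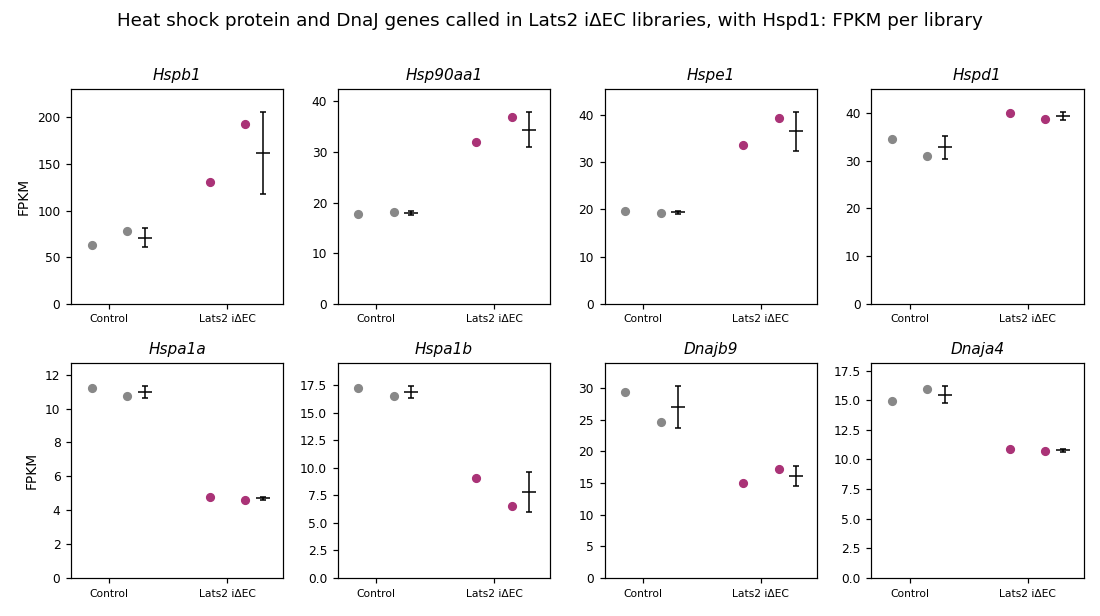
FPKM of the 7 called members and of Hspd1 in each control and Lats2 iΔEC library (points, 2 per group), with mean and SD beside them, on axes that start at 0. Hspb1, Hsp90aa1 and Hspe1 are higher and Hspa1a, Hspa1b, Dnajb9 and Dnaja4 lower in Lats2 iΔEC libraries, and Hspd1 (adjusted p = 0.181) is shown as the partner of Hspe1.

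Of the 11 heat-inducible genes tested, 3 were called higher and 2 lower, beside 11.8% and 9.98% of all genes, with a median log2 fold change of 0.26, and their summed level was 873 to 939 FPKM in control and 1103 to 1173 FPKM in Lats2 iΔEC libraries. Dnaja1 (-0.02), Dnajb1 (-0.28) and Hspa8 (0.16) were not called, nor were the abundant Dnaja2 (-0.01) and Dnajc8 (0.26). Of the 37 other chaperone genes tested 10 were called higher and 2 lower, beside 11.8% and 9.98% of all genes. The 2 lower genes were Bag2, an exchange factor of HSP70, at 9.64 and 8.88 FPKM in control and 4.47 and 2.77 FPKM in Lats2 iΔEC libraries (log2 fold change -1.18, adjusted p = 0.0231, SE 0.22), and Fkbp5, at 37.1 and 33.7 FPKM in control and 17.6 and 13.6 FPKM in Lats2 iΔEC (log2 fold change -1.14, adjusted p = 0.0134, SE 0.16). Hscb, a mitochondrial J protein of iron-sulfur cluster assembly, was higher by 0.99 (adjusted p = 0.0148, SE 0.15) and Bag3 by 0.73 (adjusted p = 0.0177, SE 0.12), from 12.95 and 12.3 to 21.1 and 22.02 FPKM. All 4 were without overlap. Hsf1 was not called (log2 fold change -0.17, adjusted p = 0.352, SE 0.12).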

How the data were processed

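RNA-seq was performed on sorted bone endothelial cells, with 3 mpEC, 3 bmEC, 3 Yap1/Taz control, 3 labelled Yap1/Taz iΔEC, 2 Lats2 control and 2 Lats2 iΔEC libraries. The study's methods name biological triplicates, and 2 libraries of each Lats2 group were analysed here. The deposited values are FPKM. Per the study's methods the authors prepared stranded total RNA libraries, aligned paired reads to GRCm38 (mm10) and counted them per gene, and the submitters' processing notes name TopHat, HTSeq 0.6.1 and DESeq2. The step from counts to FPKM and the strand setting of the counting are not given in the sources used here. The 3 tables were normalized separately, so tests were run only within a table.

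Genes were kept where their mean over a comparison reached 1 FPKM. FPKM values were taken to log2 with a pseudocount of 1 and fitted in limma 3.58.1 (R 4.3.3) with the groups of the comparison alone, a trended prior and no block. Two-sided p-values were adjusted after Benjamini and Hochberg over all genes tested. Reads were recovered from the FPKM steps and gene lengths, and 62.3% to 70.0% of low values lay within 0.02 reads of a whole number. They served for depth and for the voom alternative only. Replicates differed by more than counting noise, with a chi-square per degree of freedom of 3.36 to 34.7. P-values measure the spread between these libraries, as nothing in the labels gives separate animals. On simulated data the fit recovered 93.8%, 93.9% and 57.9% of genes changed by 1 on the log2 scale in the regional, Yap1/Taz and Lats2 designs, and 100%, 100% and 92.6% of those changed by 2, and it called 13, 9 and 31 unchanged genes among 10683, 11244 and 11512 simulated. The simulation gave every gene the same fixed dispersion and drew genes independently. Apart from the set changes, only depth differed between its libraries. These shares hold for that setting and do not measure the power in the real libraries.

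Alternatives were a pseudocount of 0.1, no filter, a filter at 5 FPKM, quantile normalization, median ratio scaling, a replicate block, voom on recovered reads and leaving out each library. Scaling to all recovered reads was added after the data were seen. Members, families and gene lists were chosen with earlier results of these data known. Named genes were members called with a log2 fold change over 0.5, the 8 members of highest mean per comparison, 11 heat-inducible genes, up to 4 called genes per comparison of a list of other chaperone genes with Hsf1, members within 0.2 FPKM of the filter and the targeted genes. Any other gene was named after its values were seen. Shared sequence was counted in words of 50 bases over GENCODE M21 transcripts (Python 3.11.15, pandas 2.3.3, numpy 2.4.6, Biopython 1.88), and figures were drawn with matplotlib 3.10.9. Promoters are from RefSeq, GRCm38.p6. Protein sequences were not used here.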

Additional observations from a re-analysis of the deposited data

How the results depend on the processing

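Of 773 fold changes of single genes recomputed under an alternative, 656 kept their direction and their side of the threshold. Of the others, 80 lost a call, 18 gained one and 19 reversed their direction. Many of the 773 are of genes that were not called at first. Only the 12, 1 and 7 called members could lose a call, so the 656 overstate how stable the calls were. The cause of these changes was not tested unless named. In bmECs against mpECs, 10 members were called higher and 2 lower. Scaling to all recovered reads, which moves the median gene to -0.16, gave 3 and 9, and a stricter threshold (adjusted p under 0.01, log2 over 0.5) gave 1 and 1. No filter gave 1 lower and quantile normalization 5 lower. Leaving out a library gave 4 to 8 higher and 1 to 3 lower. The members' median of 0.09 became 0.043 under quantile normalization, -0.094 under scaling to all reads, and 0.061 to 0.11 without a library.

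For the Yap1/Taz libraries the 1 call became 0 with a pseudocount of 0.1, with no filter, with the replicate block, with scaling to all reads and at the stricter threshold, and 0 to 3 without a library. The median of -0.02 became -0.045 under quantile normalization, -0.054 with scaling to all reads and -0.038 to 0.013 without a library. For Lats2, 3 higher became 6 with voom, 0 at the stricter threshold and 0 to 3 without a library. The 4 lower became 2 with no filter, 0 at the stricter threshold and 0 to 2 without a library. The median of -0.02 became 0.0027 with a filter at 5 FPKM, where fewer genes were tested, -0.048 under quantile normalization, -0.15 with scaling to all reads and -0.042 to 0.035 without a library.

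Deviations from the group means of same-numbered libraries correlated at 0.31, 0.088 and 0.10 in the regional table, at -0.175, -0.123 and -0.155 in the Yap1/Taz table and at 0.065 in the Lats2 table. In the regional table replicates 1 of both groups deviated together, but mpEC replicate 2 correlated best with bmEC replicate 3 (0.12). As not every pair passed 0.1 and no source ties the numbers to animals or batches, they were not taken as pairs. With the replicate block, 11 members higher and 3 lower, 0, and 3 higher and 3 lower were called, and the calls over all genes went from 2682 to 3072 in the regional table, from 148 to 45 in the Yap1/Taz table and from 2711 to 2655 in the Lats2 table.

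None of the reversed values was called. With scaling to all reads in bmECs, Dnaja1 came to -0.054, Dnajb1 to -0.041, Dnajc15 to -0.084, Dnajc8 to -0.15 and Hspd1 to -0.058. Quantile normalization gave -0.062 for Dnajc8 in bmECs and -0.12 for Hspa8 in Lats2 iΔEC. With 1 library left out, Hspa1a in bmECs ranged from -0.94 to 0.23, the latter without mpEC replicate 3. In the Yap1/Taz libraries, Dnaja1 ranged from -0.085 to 0.15, Dnajc9 from -0.24 to 0.038 and Hsp90ab1 from -0.073 to 0.17, reversed without control replicate 1, and Hspa9 from -0.037 to 0.037, reversed without control replicate 2 or iΔEC replicate 1. In the Lats2 libraries, Dnaja1 ranged from -0.055 to 0.019, Dnaja2 from -0.088 to 0.062, Hsp90b1 from -0.27 to 0.059 and Hspa5 from -0.23 to 0.00012, reversed without iΔEC replicate 2 and, for Dnaja2 and Hsp90b1, also without control replicate 1.

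Depth limits genes at a few FPKM, such as Hspa1b, and the 2 libraries per group limit the Lats2 comparison. Whole-gene levels do not show the deleted exons alone, and reads shared between near-identical genes are uncertain. Libraries of the regional table differed in the sums of marker genes of other cells, and how much these add to chaperone levels was not tested.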

Other observations

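Hspa12b, an atypical HSP70 abundant in endothelium, was described in no comparison above. It was at 6.17, 8.70 and 10.9 FPKM in mpECs and 6.63, 8.46 and 7.68 FPKM in bmECs, at 3.66, 7.33 and 4.87 FPKM in Yap1/Taz controls and 4.36, 3.57 and 4.35 FPKM in the labelled libraries, and at 33.7 and 41.7 FPKM in Lats2 controls and 56.2 and 53.4 FPKM in Lats2 iΔEC libraries. The groups overlapped in the first 2 tables and were apart in the Lats2 table, where the difference of 0.54 (adjusted p = 0.0536, SE 0.14) narrowly missed the threshold of limma's test. The gene was chosen after its values were seen.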
